A study of Magallana angulata with 9 samples.

Results

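This is an account of 150 genes of the Portuguese oyster, Crassostrea angulata, whose transcripts were more abundant in D-larvae after freezing and thawing and were, on average, level between larvae held in cryoprotectant and fresh larvae. They were chosen from 28372 genes in the deposited table. A gene could be chosen if its mean count over the 9 libraries was 50 or more and if it had a mean difference between cryoprotectant exposed and fresh larvae of at most 0.2 on the log2 scale in either direction, which 13786 genes did. In each pool of larvae the smaller of 2 differences was taken, cryopreserved minus cryoprotectant exposed and cryopreserved minus fresh, and the lowest of the 3 pools is the score of the gene. The 150 genes with the highest scores were kept. All levels are CPM, the count of a gene scaled to the normalised total count of its library, and all differences are between log2 CPM values of libraries of the same pool.

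A D-larva is the first shelled stage of an oyster, which swims and feeds with a ciliated lobe, the velum. The larvae of 3 pools, each bred from 3 males and 3 females, were sampled in 3 conditions with 1 library per pool and condition. The cryopreserved larvae spent 3 min at 4 °C in 10% dimethyl sulfoxide, 1% polyvinylpyrrolidone and 0.2 M sucrose and were frozen in straws, stored in liquid nitrogen (2 months), thawed in a bath at 37 °C (10 s), left in seawater for 1 h, collected on a mesh and washed. The cryoprotectant exposed larvae were held in the same solution and diluted in seawater, without freezing. The fresh larvae stayed in filtered seawater. Every library is thus a mixture of many whole animals, and no marker of a tissue or cell type was checked, since the genes have no names here. The estimated counts summed to between 22367780 and 24440543 in the cryopreserved libraries, between 33643297 and 45990672 in the cryoprotectant exposed libraries and between 24482043 and 45051399 in the fresh libraries, so the cryopreserved libraries were the least deep.

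Freezing can injure cells through ice, through loss of water and through the concentration of salts around them, and thawing adds osmotic stress and oxidants. Animal cells are known to answer such damage within a short time with new transcripts, among them those of chaperones, of proteins that tag or degrade misfolded proteins and of transcription factors of the first response, while messages made before the injury can persist or decay. A cryoprotectant such as dimethyl sulfoxide enters cells and limits ice, while sucrose and polyvinylpyrrolidone stay largely outside. The oyster genes here carry only NCBI gene numbers of the related species Crassostrea gigas. None of the 28372 numbers occurs in the gene table used, so the number matched is 0 and no gene below is given a product or a role.

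Because the 150 genes were picked on the differences described here, those differences are a description of them and no evidence that the genes respond. The ratio of mean CPM in cryopreserved over fresh larvae had a median of 3.19 and ran from 2.22 to 57.4. Against cryoprotectant exposed larvae its median was 3.29, with a range from 2.25 to 51.7. Averaged over the pools, cryopreserved minus fresh was between 1 and 1.5 for 41 genes, between 1.5 and 2 for 72, between 2 and 3 for 29 and over 3 for 8. Most of the genes were thus higher by a moderate amount, and a few were higher by far more.

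**Figure D1:**
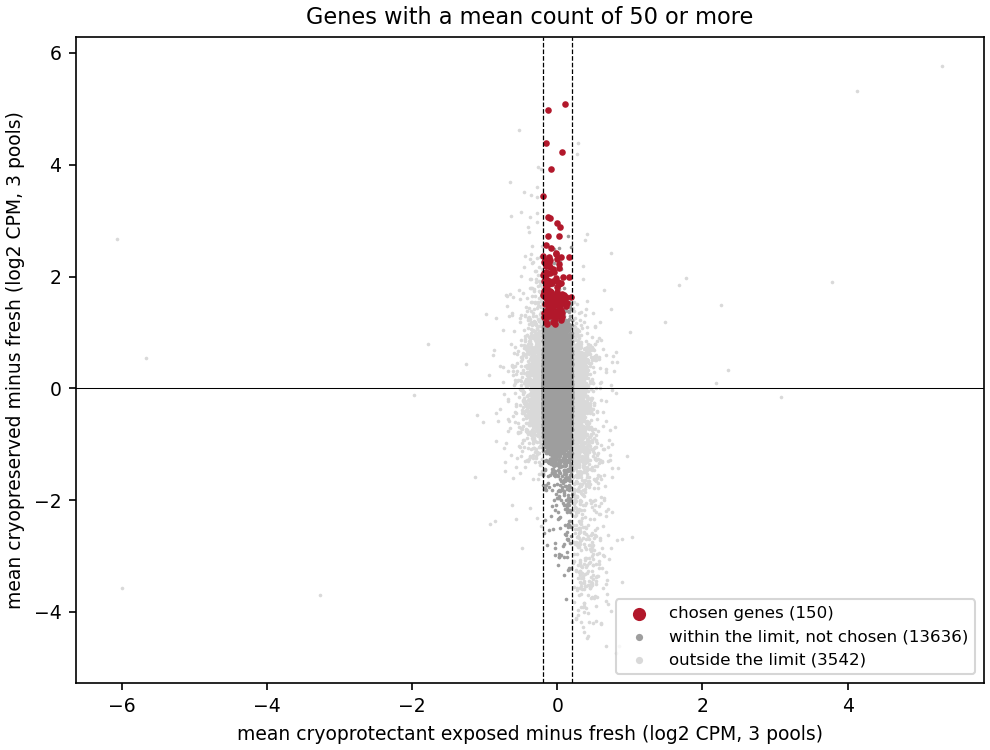
Each point is a gene with a mean count of 50 or more, placed by its mean difference over 3 pools between cryoprotectant exposed and fresh larvae (x axis, log2 CPM) and between cryopreserved and fresh larvae (y axis, log2 CPM), with dashed lines at the limit of 0.2 on either side of 0. The 150 chosen genes, in red, lie between the lines with values from 1.15 to 5.09 on the y axis, and the column of grey points around them holds the rest of the 13786 eligible genes.

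The scores ran from 1.08 to 2.89, with a median of 1.32. Of the eligible genes, 3101 had a score over 0, 187 over 1, 47 over 1.5 and 12 over 2, so the limit of the list falls where genes are dense. Just inside it, gene 105325571 had 47.7, 54.1 and 65.4 CPM in the cryopreserved larvae of pools 1, 2 and 3, against 17.5, 23.2 and 28.3 CPM in cryoprotectant exposed larvae and 22.4, 23.6 and 29.3 CPM in fresh larvae. Genes 105333366 and 105346334 closed the list with scores of 1.09 and 1.08. Just outside it, gene 105337749 had 70.8, 40.7 and 40.1 CPM in cryopreserved larvae, against 32.5, 19.0 and 16.9 CPM in cryoprotectant exposed larvae and 30.1, 19.2 and 16.9 CPM in fresh larvae. Genes 105337474 and 105341361 followed, and the scores of all 3 genes just outside round to 1.08. Nothing in the values separates the genes on the 2 sides of the limit.

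Low counts in a library were rare in the list, as among the eligible genes. None of the 150 was at 0 in any library. At least 10 counts in every library were reached by 149 genes, or 99.3%, beside 99.2% of the eligible genes. The exception, gene 105326951, had 10.1, 1.64 and 6.11 CPM in the cryopreserved larvae of pools 1, 2 and 3, against 0.327, 0.545 and 0.529 CPM in cryoprotectant exposed larvae and 0.505, 0.272 and 0.899 CPM in fresh larvae. The ratios of this gene rest on few counts in the larvae that were not frozen. A count of 0 would have allowed up to 3 counts, which is between 0.0586 and 0.149 CPM depending on the library. These floors cover counting error only, since reads of amplified libraries are not independent molecules.

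The 10 genes of highest score included both steady and uneven ones. Gene 105347113 had 64.0, 19.1 and 33.3 CPM in the cryopreserved larvae of pools 1, 2 and 3, against 2.10, 2.48 and 3.82 CPM in cryoprotectant exposed larvae and 2.92, 2.33 and 4.46 CPM in fresh larvae. Its lowest cryopreserved library was thus several times its highest library in the other conditions, and the difference from fresh larvae was 3.44 ± 0.86 on the log2 scale (SD, n = 3 pools). Gene 105318014 had 27.4, 44.5 and 37.7 CPM in cryopreserved larvae, against 3.19, 4.42 and 6.74 CPM in cryoprotectant exposed larvae and 2.78, 5.01 and 6.82 CPM in fresh larvae. Here the pools were closer than in gene 105347113, with a difference from fresh larvae of 2.96 ± 0.44 (SD, n = 3 pools). Its smaller difference still ranged over the pools by 0.68, above the median of 0.49 in the list.

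Gene 105347692 was the steadiest of the 10 across libraries of a condition. It had 353, 378 and 390 CPM in cryopreserved larvae, against 58.5, 65.5 and 59.8 CPM in cryoprotectant exposed larvae and 72.0, 60.0 and 63.8 CPM in fresh larvae. The log2 difference was 2.61 ± 0.09 against cryoprotectant exposed larvae and 2.52 ± 0.20 against fresh larvae (SD, n = 3 pools). Gene 105332908 followed the pools in every condition. It had 588, 1002 and 729 CPM in cryopreserved larvae, against 104, 198 and 130 CPM in cryoprotectant exposed larvae and 102, 205 and 133 CPM in fresh larvae. Pool 2 was the highest in all 3 conditions, so the log2 differences from fresh larvae of 2.52, 2.29 and 2.45 were more alike than the levels.

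Genes 105323817, 105345787 and 105344264 were each about 5-fold higher in cryopreserved than in fresh larvae in mean CPM, with ratios of 4.79, 4.89 and 5.09. Gene 105323817 had 233, 290 and 234 CPM in cryopreserved larvae, against 40.9, 60.0 and 45.3 CPM in cryoprotectant exposed larvae and 54.5, 58.0 and 45.4 CPM in fresh larvae. Gene 105345787 had 273, 217 and 227 CPM in cryopreserved larvae, against 39.1, 39.6 and 51.8 CPM in cryoprotectant exposed larvae and 51.1, 42.0 and 53.6 CPM in fresh larvae. Both were highest in cryopreserved larvae by a wide margin, and in pool 1 both were lower in cryoprotectant exposed than in fresh larvae. Gene 105344264 had 72.6, 82.6 and 143 CPM in cryopreserved larvae, against 12.6, 19.1 and 24.2 CPM in cryoprotectant exposed larvae and 16.0, 18.9 and 23.8 CPM in fresh larvae.

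**Figure D2:**
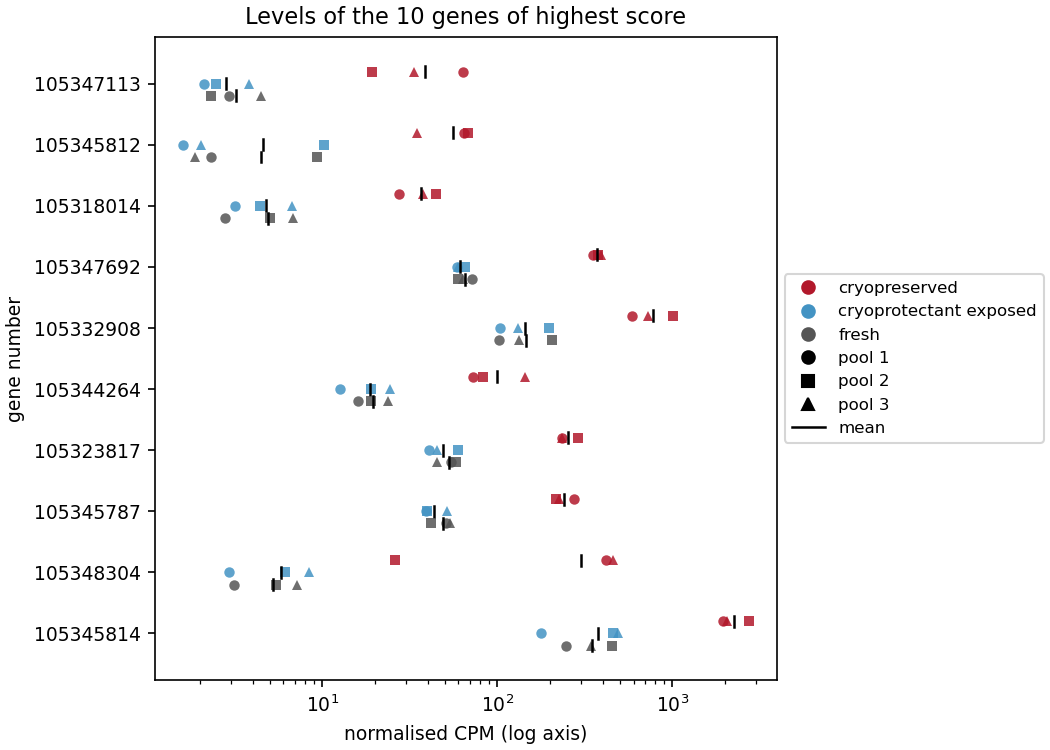
Normalised CPM on a log axis for the 10 genes of highest score, with a point for each library, a marker shape for each pool, a colour for each condition and a short bar at each mean. For every gene the 3 cryopreserved libraries lie to the right of the other 6, and gene 105348304 stands out by its pool 2 library at 26.1 CPM, far below 415 and 461 CPM in the other pools.

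Some genes of the list took far more counts than others. The 150 genes together summed to 33306, 32709 and 36023 CPM in the cryopreserved larvae of pools 1, 2 and 3, against 6822, 9489 and 10166 CPM in cryoprotectant exposed larvae and 8131, 9477 and 9464 CPM in fresh larvae. On this scale 33306 CPM are 3.33% of a library. The genes held between 3.27% and 3.60% of the normalised counts of a cryopreserved library, between 0.682% and 1.02% of a cryoprotectant exposed library and between 0.813% and 0.948% of a fresh library. CPM is a share of the counts of a library, so RNA gained from these genes and RNA lost from others cannot be told apart, nor can more cells of a type and more RNA per cell. The 5 genes with the most counts made up between 22.8% and 29.3% of the summed CPM of the list in cryopreserved larvae.

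Those 5 genes were 105345814, 105330331, 105323139, 105338894 and 105341654. The files give no gene lengths, so their CPM says how many counts they took and not which gene was expressed more strongly. Gene 105345814 had 1953, 2723 and 2051 CPM in the cryopreserved larvae of pools 1, 2 and 3, against 177, 458 and 489 CPM in cryoprotectant exposed larvae and 246, 452 and 342 CPM in fresh larvae. Gene 105330331 had 1344, 1686 and 2250 CPM in cryopreserved larvae, against 187, 320 and 408 CPM in cryoprotectant exposed larvae and 340, 301 and 357 CPM in fresh larvae. In both genes the cryoprotectant exposed library of pool 1 was the lowest of the 9. Gene 105323139 had 1886, 1708 and 1306 CPM in cryopreserved larvae, against 236, 429 and 347 CPM in cryoprotectant exposed larvae and 291, 434 and 247 CPM in fresh larvae. Gene 105338894 was highest in pool 2 in all conditions, with 1281, 1705 and 1564 CPM in cryopreserved larvae, against 201, 560 and 327 CPM in cryoprotectant exposed larvae and 264, 548 and 318 CPM in fresh larvae. Gene 105341654 had 1145, 1752 and 1295 CPM in cryopreserved larvae, against 177, 232 and 392 CPM in cryoprotectant exposed larvae and 285, 261 and 316 CPM in fresh larvae. The estimated counts of these 5 genes were not whole numbers in any of the 9 libraries, as happens where Salmon splits reads between transcripts of more than 1 gene, so part of their counts may belong to similar genes.

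Values that were not whole were about as frequent in the list as elsewhere or somewhat more so, and their source was not tested. Of the 9 values of a gene, a median of 55.6% were not whole among the 150 genes, beside 44.4% among the eligible genes. All 9 were whole for 10 of the 150 genes, which is 6.67%, beside 11.2% of the eligible genes. No value was whole for 33 of the 150, or 22%, beside 23.2% of the eligible genes. Genes 105347113, 105318014 and 105345812 of the highest scores had only 2, 2 and 1 values that were not whole, while 105348304 and 105345814 had 9 each.

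Large differences were most frequent in pool 1 and least frequent in pool 2, in the list and among the eligible genes alike. Over the eligible genes the smaller difference exceeded 1 in 5.48% in pool 1, 2.52% in pool 2 and 3.82% in pool 3. Among the 150 genes its median was 1.81 in pool 1, 1.48 in pool 2 and 1.56 in pool 3. It was highest in pool 1 for 90 genes, in pool 2 for 28 and in pool 3 for 32, beside 34.8%, 31.4% and 33.8% of the eligible genes. It was lowest in pool 1 for 28 genes (18.7%), in pool 2 for 78 (52%) and in pool 3 for 44 (29.3%), beside 39.8%, 35.2% and 25% of the eligible genes, so pool 2 most often set the score. The smaller difference exceeded 3 in 10 of the 150 genes in pool 1, in 1 in pool 2 and in 7 in pool 3, beside 27, 1 and 13 of the eligible genes.

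A small group accounted for the largest pool differences. In 12 of the 150 genes the smaller difference in pool 2 lay more than 1 below that in each of the other pools, and 0 genes had pool 1 or pool 3 that far below both others. The genes of this and the following counts of pool patterns were singled out after their values were seen. The shares of the eligible genes with these patterns were not counted, so the counts show nothing particular to the list. Gene 105348304 had 415, 26.1 and 461 CPM in the cryopreserved larvae of pools 1, 2 and 3, against 2.94, 6.15 and 8.37 CPM in cryoprotectant exposed larvae and 3.14, 5.43 and 7.15 CPM in fresh larvae. Gene 105348305 had 131, 12.2 and 136 CPM in cryopreserved larvae, against 0.872, 2.06 and 2.63 CPM in cryoprotectant exposed larvae and 0.686, 3.65 and 2.42 CPM in fresh larvae. Both genes shared a high level after thawing in pools 1 and 3 and a much lower one in pool 2. Their estimated counts were not whole in any library, so reads shared between similar genes may enter both.

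Genes 105346578 and 105334510 had the same form. Gene 105346578 had 156, 12.6 and 260 CPM in cryopreserved larvae, against 1.31, 3.36 and 8.62 CPM in cryoprotectant exposed larvae and 1.77, 3.53 and 8.38 CPM in fresh larvae. Gene 105334510 had 153, 7.57 and 128 CPM in cryopreserved larvae, against 1.77, 2.67 and 5.12 CPM in cryoprotectant exposed larvae and 1.66, 2.91 and 4.32 CPM in fresh larvae. Even in pool 2 the cryopreserved library of each of these 4 genes was above every library of the other conditions, 105346578 and 105334510 by the narrowest margins. The log2 difference from fresh larvae was 7.02, 2.25 and 6.00 in pools 1, 2 and 3 for 105348304, 7.45, 1.72 and 5.77 for 105348305, 6.41, 1.82 and 4.95 for 105346578 and 6.48, 1.36 and 4.87 for 105334510. These were the 4 largest mean differences of the list, 5.09, 4.98, 4.39 and 4.24, and they had the largest SDs over pools of the genes named here, 2.51, 2.95, 2.35 and 2.62 (n = 3 pools).

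In other genes a low smaller difference in pool 2 went with a high level without freezing. Gene 105334739 had 30.0, 58.1 and 40.6 CPM in the cryopreserved larvae of pools 1, 2 and 3, against 3.41, 22.5 and 2.35 CPM in cryoprotectant exposed larvae and 4.15, 23.0 and 1.76 CPM in fresh larvae. Pool 2 was thus the highest in all conditions and had the smallest difference, 1.34 on the log2 scale. Gene 105345812 was alike, with 64.1, 68.1 and 34.9 CPM in cryopreserved larvae, against 1.61, 10.2 and 2.02 CPM in cryoprotectant exposed larvae and 2.31, 9.27 and 1.88 CPM in fresh larvae. Its level after thawing was close in pools 1 and 2, while its levels in the other conditions were several times higher in pool 2.

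At the other end, 31 of the 150 genes differed by less than 0.25 between the pools in the smaller difference. The median range over the pools was 0.49 in the list and also 0.49 among the eligible genes. Gene 105336351 had 44.6, 38.0 and 38.2 CPM in the cryopreserved larvae of pools 1, 2 and 3, against 13.3, 13.0 and 12.6 CPM in cryoprotectant exposed larvae and 14.5, 12.1 and 12.3 CPM in fresh larvae. Its difference from fresh larvae was 1.63 ± 0.02 (SD, n = 3 pools), with nearly the same level in all pools. Gene 105339316 had 387, 403 and 354 CPM in cryopreserved larvae, against 117, 161 and 142 CPM in cryoprotectant exposed larvae and 154, 159 and 139 CPM in fresh larvae. Its difference from fresh larvae was 1.34 ± 0.01, while the difference from cryoprotectant exposed larvae was 1.45 ± 0.23 (SD, n = 3 pools), and the exposed library of pool 1 was the lowest of the 9. Gene 105339291 differed between pools in level and hardly in the smaller difference. It had 91.3, 119 and 62.0 CPM in cryopreserved larvae. In cryoprotectant exposed larvae it had 36.5, 46.7 and 23.7 CPM, and in fresh larvae 30.7, 46.7 and 21.9 CPM. Genes 105328506 and 105328273 were as even at levels of at most 7.27 CPM in any library.

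**Figure D3:**
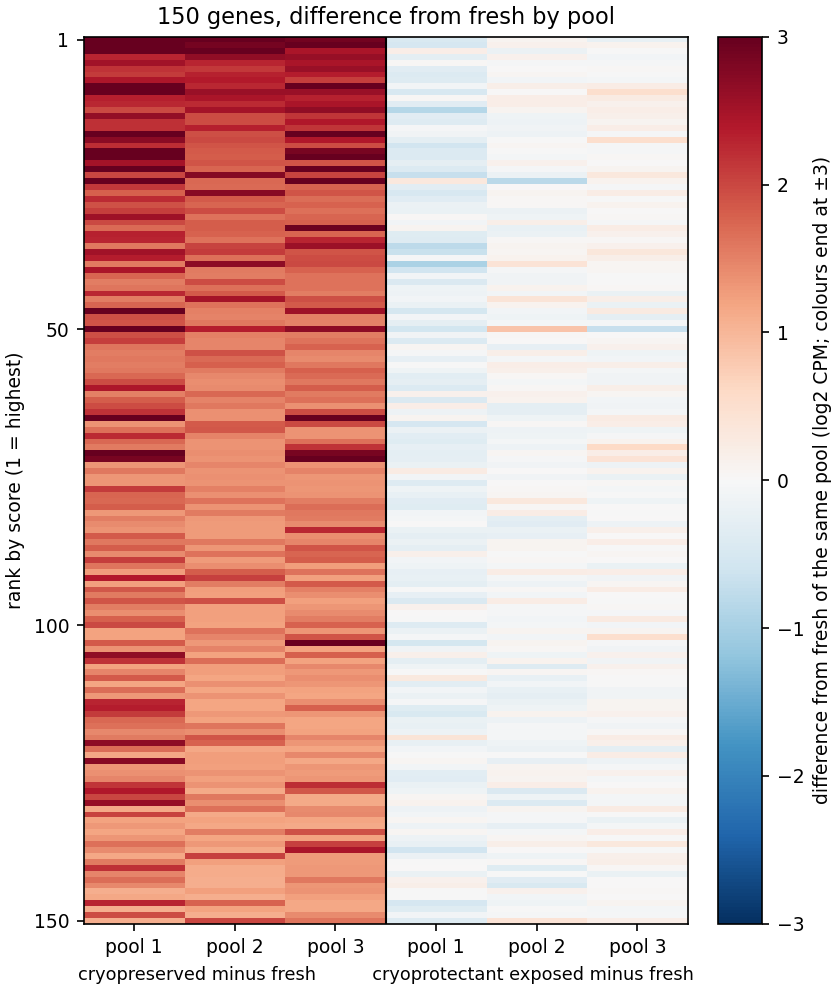
Difference in log2 CPM from the fresh library of the same pool for the 150 genes, in rows ordered by score, with the 3 cryopreserved libraries at the left and the 3 cryoprotectant exposed libraries at the right; colours end at 3 in either direction. All cells at the left are red, with lighter ones in pool 2, while the cells at the right are pale and most of those in pool 1 are faintly blue.

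Without freezing, the levels of the 150 genes varied between pools about as much as those of the eligible genes or slightly more. The SD of log2 CPM over the 3 cryoprotectant exposed libraries had a median of 0.33 among the 150 genes, beside 0.27 among the eligible genes. Over the 3 fresh libraries its median was 0.27, beside 0.24. Over the 3 cryopreserved libraries it was 0.27, beside 0.29. The fresh libraries lay more than 1 apart on the log2 scale for 25 of the 150 genes, which is 16.7%, beside 14.4% of the eligible genes. The mean level in fresh larvae had a median of 26.4 CPM among the 150 genes and 19.8 CPM among the eligible genes. The fresh library of pool 1 was the highest of the fresh libraries for 17 of the 150 genes, or 11.3%, beside 29.9% of the eligible genes, but a low fresh level also raises the score of a gene.

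In 146 of the 150 genes every cryopreserved library was above all 6 others in CPM, and 9.49% of the 23052 genes tested had this pattern. The rule fixes most of it, since it asks for a higher value within every pool. The genes that overlapped were 105345634, 105338034, 105330302 and 105330754. Gene 105345634 had 906, 474 and 1816 CPM in the cryopreserved larvae of pools 1, 2 and 3, against 126, 181 and 580 CPM in cryoprotectant exposed larvae and 169, 177 and 513 CPM in fresh larvae. The cryopreserved library of pool 2 was below the other libraries of pool 3, and yet within each pool the cryopreserved library was the highest.

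The cryoprotectant step was level only on average. The rule held the mean difference between cryoprotectant exposed and fresh larvae within 0.2, and it was within 0.2 in each of the 3 pools for 38 of the 150 genes, or 25.3%, beside 48.6% of the eligible genes. In pool 1, 124 of the 150 genes were lower in cryoprotectant exposed than in fresh larvae, which is 82.7%, beside 51.4% of the eligible genes. There, 61 genes were lower by over 0.25 and 4 were higher by over 0.25, beside 7.91% and 6.88% of the eligible genes. The median difference of the 150 genes was -0.19 in pool 1, -0.03 in pool 2 and 0.02 in pool 3, while that of the eligible genes was within 0.01 of 0 in every pool. The summed CPM of the list in cryoprotectant exposed larvae was 0.839 of that in fresh larvae in pool 1, against 1.00 in pool 2 and 1.07 in pool 3. Most of the 150 genes were lower in the exposed library of pool 1, while their medians were near level in the others. The choice shapes this contrast in part. Its limit holds the mean over the pools, so a gene far lower in pool 1 stayed only if other pools were near level or higher. The eligible genes met the same limit. The pattern rests on a single library of each condition and was not tested.

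Such differences also occurred in genes with many counts, 105330331 and 105341654 among them. In pool 1 gene 105330331 had 187 CPM in cryoprotectant exposed larvae, against 340 CPM in fresh larvae, a log2 difference of -0.87. In pools 2 and 3 its difference was 0.09 and 0.19. Gene 105341654 differed by -0.68 in pool 1, -0.17 in pool 2 and 0.31 in pool 3. Over the list, 15 genes differed by more than 0.5 in at least 1 pool, which is 10.0%, beside 3.74% of the eligible genes.

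**Figure D4:**
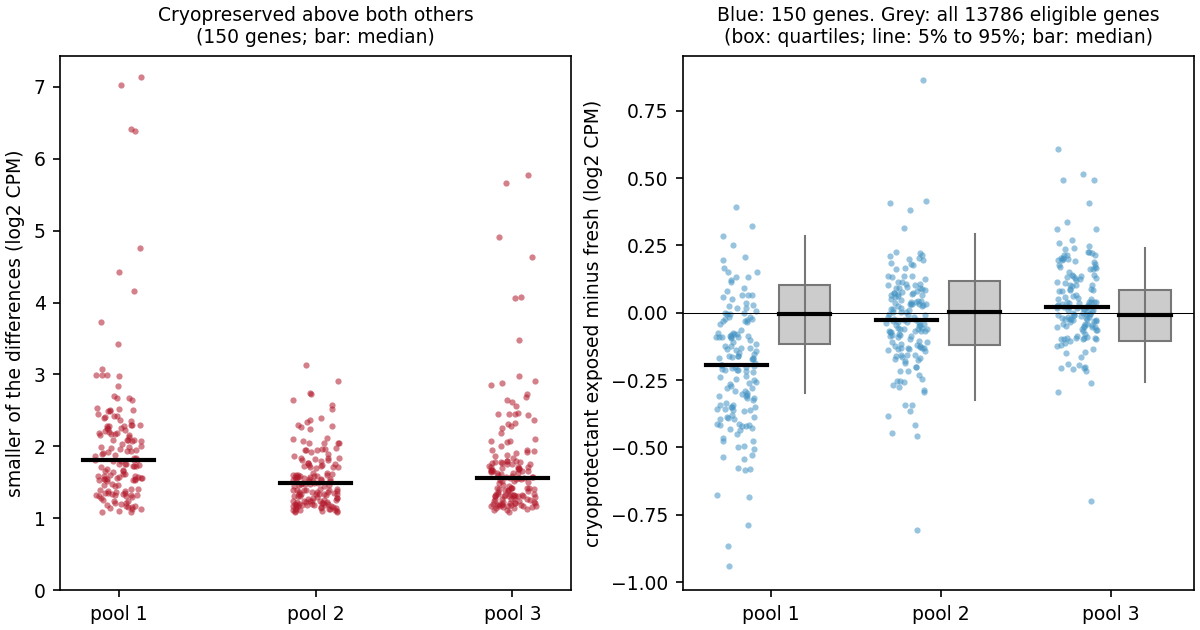
Left, the smaller of the differences between cryopreserved larvae and the other conditions in each pool for the 150 genes (log2 CPM). Right, cryoprotectant exposed minus fresh in each pool for the same genes in blue and for all eligible genes as grey boxes; the blue median is -0.19 in pool 1, against -0.03 in pool 2 and 0.02 in pool 3, and the grey medians lie at 0 in all pools to within 0.01.

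The choice can be set against data it did not use by leaving a pool out. The rule was applied to 2 pools alone, 150 genes were taken, and their values in the third pool were read. Chosen without pool 1, 148 of 150 genes were higher in the cryopreserved library of pool 1 than in both others of that pool, and 138 by over 1, which is 92.0%, beside 5.82% of the genes that could have been chosen. Chosen without pool 2, 146 genes were higher in the cryopreserved library of pool 2 and 89 by over 1, which is 59.3%, beside 2.43%. Chosen without pool 3, all 150 genes were higher in the cryopreserved library of pool 3 and 129 by over 1, which is 86.0%, beside 3.52%. Of the genes that could have been chosen, 42.9%, 40.4% and 44.3% were higher by any amount in pools 1, 2 and 3. The median smaller difference in the pool left out was 1.89 for pool 1, 1.18 for pool 2 and 1.36 for pool 3, beside -0.10, -0.10 and -0.06 for the genes that could have been chosen. The genes high after thawing in 2 pools were thus high in the third as well, least so in pool 2. No test was made of these counts, since genes are not independent of each other and each pool gave 1 library per condition.

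The lists chosen on 2 pools can also be read in the exposed library of pool 1, which the choice without pool 1 did not use. That list shares 104 genes with the 150 genes above, in which the lower level was first seen. The reading rests on 1 exposed and 1 fresh library and was not tested. Of the 150 genes chosen without pool 1, 127 were lower in cryoprotectant exposed than in fresh larvae of pool 1, or 84.7%, beside 52.2% of the genes that could have been chosen. Their median difference was -0.29, beside -0.01. For the genes chosen without pool 2 or without pool 3 the share lower in exposed larvae of the pool left out was 60.0% and 49.3%, beside 49.2% and 53.5%.

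**Figure D5:**
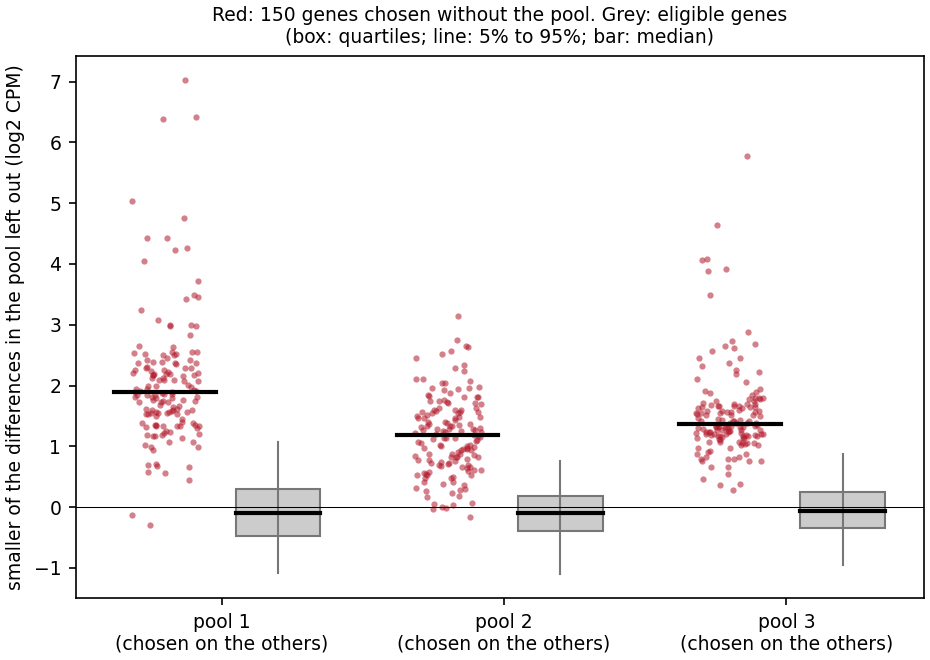
For each pool, the smaller of the differences between cryopreserved larvae and the other conditions in that pool (log2 CPM) for the 150 genes chosen on the other pools, in red, and for all genes that could have been chosen, as grey boxes. The red medians are 1.89, 1.18 and 1.36 in pools 1, 2 and 3, all above the upper end of the grey boxes.

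Across all genes, the libraries were compared with edgeR's quasi-likelihood test over the 9 libraries, with no factor besides condition and with Benjamini-Hochberg adjustment. A gene is called where its adjusted p-value is under 0.05 and its log2 fold change over 1.5. All 150 genes entered the test. Against cryoprotectant exposed larvae 110 of the 150 genes were called higher in cryopreserved larvae, and 1.07% of the 23052 genes tested were, or 1.84% with the replicate number as a block, with which 114 of the 150 were called. Against fresh larvae 101 of the 150 were called, and 0.833% of the genes tested were, or 1.65% with the block, with which 111 of the 150 were called. These shares follow from the choice, which used the same libraries. The comparisons share the cryopreserved libraries, and 100 genes were called in both, 10 against cryoprotectant exposed larvae only, 1 against fresh larvae only and 39 in neither.

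The genes that were not called fell short mostly by size. At an adjusted p-value under 0.05 and any fold change, 141 of the 150 genes were higher in cryopreserved than in cryoprotectant exposed larvae and 138 were higher than in fresh larvae, beside 3.90% and 3.04% of the genes tested. With the replicate number as a block all 150 passed in both comparisons, beside 12.8% and 10.8% of the genes tested. Among the genes that passed in both comparisons only with the block was 105337551, with 197, 349 and 617 CPM in the cryopreserved larvae of pools 1, 2 and 3, against 40.7, 80.3 and 196 CPM in cryoprotectant exposed larvae and 46.8, 90.2 and 195 CPM in fresh larvae. The fitted log2 fold changes had medians of 1.72 against cryoprotectant exposed larvae and 1.67 against fresh larvae, beside -0.00 and -0.02 over the genes tested. With library size only in place of the TMM scaling the median of all genes shifted to -0.13 and -0.20, the medians of the 150 genes were 1.59 and 1.49, and 82 and 57 of them were called. The calls over all genes with this scaling are not given here, so these lower counts show nothing particular to the list.

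Between cryoprotectant exposed and fresh larvae 0 of the 150 genes were called in either direction, and 0% of the genes tested were by edgeR's quasi-likelihood test. At an unadjusted p-value under 0.05, 0 of the 150 genes were higher or lower, with or without the replicate block. Without the block 36 of the genes tested, or 0.156%, were higher in exposed larvae at that level and 29, or 0.126%, were lower. With the block 1.39% were higher and 0.855% were lower. DESeq2 called 0 of the 150 as well. The rule held the mean difference of the 150 genes within 0.2, so these counts of 0 follow largely from the choice. They are no result about the cryoprotectant step. The fitted log2 fold changes of the 150 genes ran from -0.29 to 0.24, with a median of -0.06, which the limit in the rule fixes. Without the cryoprotectant exposed library of pool 1 the median was 0.08, and 76 of the 150 genes were called against cryoprotectant exposed larvae in place of 110. Over all genes, in both directions, 435 were then called in place of 693, so the fall was not particular to the list.

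The cryopreserved larvae were frozen and thawed, which the cryoprotectant exposed larvae were not. According to the paper, the concentrated larvae were kept on ice before use and the hour in seawater was at room temperature. The cryopreserved larvae thus differed from the exposed larvae as well in storage, in warming, in the hour in seawater and in the collection on a mesh and the washing. No library had these steps without freezing, so freezing and those steps cannot be told apart for any of the 150 genes.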

How the data were processed

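RNA of 3 pools of D-larvae in 3 conditions was sequenced, with 1 library per pool and condition. The authors filtered the reads, used the Crassostrea gigas genome as reference and summed expression to genes with Salmon 1.1, and they deposited estimated counts without normalization, of which 38.2% are not whole. Here they were rounded. For the choice of genes, log2 CPM was computed with TMM over all genes and a prior count of 2. For the tests, the 23052 genes that reached 5 counts in 3 or more libraries entered the quasi-likelihood test of edgeR 4.0.16 (R 4.3.3), with the thresholds of the study. DESeq2 1.42.0, RLE and library size scaling, other filters, other settings of the rule and each library left out were alternatives. The genes and settings were chosen with earlier results of these data known.

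The genes named are the 10 of highest score, the 3 nearest the limit on each side, and the 5 each with the most counts in cryopreserved larvae, the largest mean difference from fresh larvae, and the most and the least difference between pools. Others were chosen after their values were seen.

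The study exposed each pool to all conditions, so replicate numbers mark pools. Libraries that share a number deviated together from the means of their conditions, with r from 0.513 to 0.863 over 9 pairs. Replicates of a condition differed beyond counting error (chi-square divided by its degrees of freedom 72.6 to 189), and p-values measure only the spread between these pools. Scripts were tested on simulated data. Gene lists by product name could not be used, since 0 gene numbers matched a name. With 3 libraries per condition no outlying library was searched for.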

Additional observations from a re-analysis of the deposited data

How the results depend on the processing

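The list itself depended most on its limit for the cryoprotectant step and on pool 2. With a limit of 0.1 in place of 0.2 it kept 74 of the 150 genes, since only those met the limit. Leaving out a pool kept between 77 (pool 2) and 114 (pool 3). Another scaling, prior count or minimum count, or a limit of 0.4, kept between 111 and 149. The number of the 150 genes called against fresh larvae moved most when TMM was replaced by library size, to 57 in place of 101. The calls over all genes with that scaling are not given beside it. With 1 library left out it was between 70 and 100, and against cryoprotectant exposed larvae between 76 and 114, always with the higher level in cryopreserved larvae. The replicate block, which pairs libraries of a pool, gave 1119 calls over all genes in place of 693 against cryoprotectant exposed larvae and 917 in place of 507 against fresh larvae, with 114 and 111 of the 150 genes called. DESeq2 called 2 genes, none of the 150, between exposed and fresh larvae in place of 0. With 1 library left out the counts over all genes were between 435 (without the exposed library of pool 1) and 641, and between 287 and 459. Against fresh larvae they were 287, 313 and 320 without the fresh library of pool 1, 2 and 3. The 29 genes named by rule and all alternatives gave 435 combinations for each comparison. Against cryoprotectant exposed larvae 26 calls were lost and 20 gained, and against fresh larvae 38 were lost and 8 gained. In these genes, chosen for their direction, 0 directions changed. Among the genes of largest difference, calls were lost in 6 and 7 of 15 alternatives for 105346578 and 105345812, in 3 and 5 for 105334510 and in 1 and 3 for 105348304 and 105348305, nearly all with 1 library left out. The causes were not tested. Gene 105326951 rested on few counts without freezing, with 12 to 27 counts in cryoprotectant exposed and 7 to 46 counts in fresh libraries.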
